A study of Mus musculus with 12 samples.

Results

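Adipose tissue of mice labelled Bbs2-/- was compared with and without an inhibitor of glucosylceramide synthase, across every expressed gene. The comparison holds 8 of the 12 libraries of the study, taken by their sample titles: 4 from treated and 4 from untreated Bbs2-/- mice. All 8 share the Bbs2-/- genotype label and the mixed strain background C57BL/6 x 129/SvJ, and tissue was collected at 6 months of age. The treated mice ate feed with Genz-667161, the inhibitor, at 0.033% by weight between the ages of 2 and 6 months, and the untreated mice received no inhibitor. The other 4 libraries come from untreated wild-type (WT) mice of the same background and are given here as a reference level. They also entered the estimate of spread. The labels give neither the fat depot nor the sex, and no label ties a sample number to a mouse of its own. A p-value here is therefore set by the scatter among the samples, whether that is biological or technical.

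Glucosylceramide synthase, encoded by Ugcg, adds glucose to ceramide, and its product is the precursor of lactosylceramide and the gangliosides. Sugars are later removed one after another in lysosomes by acid hydrolases that need small activator proteins, the saposins. Bbs2 is a subunit of the BBSome, a coat complex that moves membrane receptors out of primary cilia, and its loss causes an obesity syndrome in people and mice. In obese fat, macrophages with large lysosomes gather around adipocytes, so genes of lipid storage and genes of macrophages and lysosomes are measured together in a piece of tissue.

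The 8 libraries held 18408113 to 20224200 estimated counts. The genes of the adipocyte marker list were all detected, and their summed level was 11470.0 to 14150.0 counts per 1e6 counts (CPM) untreated and 24890.0 to 39620.0 treated. Bbs2 itself was at 69.5, 53.9, 53.7 and 70.6 CPM in the untreated and 65.4, 62.7, 53.7 and 64.1 CPM in the treated libraries, against 12.1 to 12.7 CPM in WT. The libraries labelled Bbs2-/- thus held more Bbs2 counts than WT libraries, the counts do not tell from which exons the reads came, and groups are named below as labelled. In treated 1 and treated 3 the ciliated epithelium factor Foxj1 had 154 and 140 counts, and in each of the remaining 6 libraries it had 2 or fewer. The 22 listed genes of ciliated epithelium summed to 75.6 and 71 CPM in those 2 libraries and to 21.6 to 26.1 CPM in the untreated ones. Counts of each gene list were therefore also taken without treated 1 and treated 3. Genes of red blood cells summed to 536 to 1075 CPM untreated and 1455 to 3307 treated. Epididymis genes stayed under 1 CPM in sum in all 8 libraries. In the reference libraries they summed to 1096 CPM in WT 1 and 7.78 CPM in WT 4, where Foxj1 had 48 and 164 counts. Macrophage core genes summed to 2887 CPM in WT 1 and to 804.6 to 1429 CPM in the other WT libraries. The WT ranges given here include WT 1 and WT 4. Mitochondrially encoded genes took 3.35 to 4.46% of counts in the untreated and 5.62 to 8.44% in the treated libraries.

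With the inhibitor, 15 of 19 tested genes of the tricarboxylic acid cycle and 13 of 19 of lipolysis were higher. Lower were 15 of 16 macrophage core genes, 29 of 36 genes of lysosomal hydrolases and membrane proteins, 11 of 13 of MHC class II presentation and 26 of 28 of mitosis (13 without treated 1 and 3). A gene is called here when its edgeR adjusted p was under 0.05 over the 15968 genes tested. Of these genes 5947 were called (37.2%), 2947 higher (18.5%) and 3000 lower (18.8%) with the inhibitor. Groups did not overlap for 6336 genes (39.7%). At least 2-fold changes numbered 985 higher (6.17%) and 1488 lower (9.32%), and at least 4-fold changes 209 higher and 549 lower. The median absolute log2 fold change of the called genes was 0.85. The median over all tested genes was 0.03, and it was -0.10 when libraries were scaled by their total alone. With that scaling 35.5% of the called genes were higher (2095 higher, 3802 lower), against 49.6% with the scaling used here. Tested against a change of at most 2-fold as the null, 173 genes were higher and 495 lower.

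**Figure D1:**
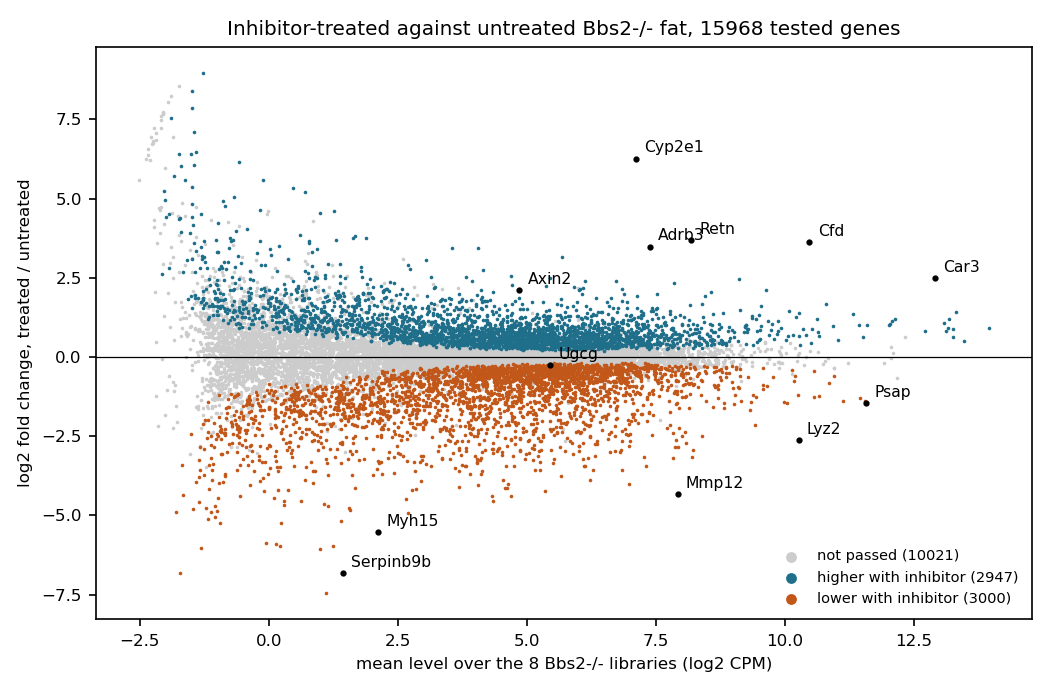
Log2 fold change of treated over untreated Bbs2-/- libraries (vertical) against the mean level over the 8 libraries in log2 CPM (horizontal), 1 point per tested gene. Blue points are the 2947 genes called higher and orange points the 3000 called lower with the inhibitor, black points are named, and Ugcg lies near 0.

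The gene of the inhibited enzyme was measured first. Ugcg (ENSMUSG00000028381.8, chromosome 4, 59189257 to 59222833, mm10) was at 42.2, 58.9, 39.8 and 54 CPM in untreated 1 to 4 and at 37, 51.1, 39.7 and 35.1 CPM in treated 1 to 4. The groups overlapped and the difference missed the threshold (log2 fold change -0.26, SE 0.15, edgeR adjusted p = 0.203). The WT libraries lay at 28.9 to 37.5 CPM. A transcript level does not measure the activity of the enzyme.

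Among well-expressed coding genes, the gene with the highest fold change was Cyp2e1, a cytochrome P450 that oxidises ethanol and small lipids (ENSMUSG00000025479.9, chromosome 7, 140763739 to 140774987, mm10). It was at 30.6, 20.6, 7.79 and 15.3 CPM untreated and at 428, 855, 2108 and 2299 CPM treated, with WT at 732 to 1356 CPM (log2 fold change 6.26, SE 0.64, edgeR adjusted p = 8.22e-05). Treated 1 was the lowest treated library for it and treated 4 the highest, and every treated library lay above every untreated one. The next were Rnase2a (4.61, SE 0.46), a ribonuclease of a gene family with near-identical copies whose counts are uncertain, Serpina3b (3.82), a serine protease inhibitor of another such cluster, and Smim5 (3.76). Retn, which encodes the adipocyte hormone resistin, was at 88.7, 92.4, 94.1 and 60.5 CPM untreated and at 818, 697, 1148 and 1689.8 CPM treated (log2 fold change 3.70, SE 0.29, edgeR adjusted p = 2.21e-05). Cfd, the complement protease adipsin that adipocytes secrete, was at 534, 224, 348 and 613 CPM untreated and at 4346, 3677, 6076 and 7061 CPM treated (log2 fold change 3.62, SE 0.34, edgeR adjusted p = 4.97e-05). Neither hormone gene had overlapping groups. Acsm3, a medium-chain acyl-CoA synthetase (3.69), Adgrg2, an adhesion receptor (3.43), Agt, the angiotensin precursor (3.15), Tmem88b (3.05) and Prrt4 (2.95) completed the 12 largest increases together with Adrb3, described with lipolysis.

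Among the same genes, the lowest fold change was that of Serpinb9b, a protease inhibitor of a multigene cluster (ENSMUSG00000021403.3, chromosome 13, 33027416 to 33041884, mm10). It was at 105, 14.6, 14.6 and 5.05 CPM untreated and at 0.362, 0.272, 0.423 and 0.157 CPM treated (log2 fold change -6.81, SE 1.08, edgeR adjusted p = 0.000798). Untreated 1 stood far above the other untreated libraries, and the call was lost with limma-voom (adjusted p = 0.0609). Mmp3, the matrix protease stromelysin 1, was at 17.7, 22, 17.2 and 9.82 CPM untreated and at 0.776, 0.817, 0.159 and 0.0525 CPM treated (-5.19, SE 0.76). Mmp12, the elastase of macrophages, fell from 2506, 1069.8, 865 and 595 CPM to 106, 68.9, 51.2 and 23.6 CPM (-4.34, SE 0.70). Clec4d, a C-type lectin receptor of myeloid cells (-4.92), Stap1, a signalling adaptor (-4.39), Rnf128, a ubiquitin ligase (-4.40), and Cpa3, the carboxypeptidase of mast cells (-4.69), fell too. Myh15, a myosin heavy chain (-5.53), Fat3, a large cadherin (-4.83), Htr2b, a serotonin receptor (-4.64), Zranb3, a DNA repair helicase (-4.55), and Fbln7, a matrix fibulin (-4.47), were the other members of the 12 largest decreases. Fbln7 had narrow groups, 32.3, 27.9, 29.7 and 29.2 CPM untreated and 1.81, 1.96, 0.847 and 0.734 CPM treated.

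Genes were also ranked by the amount of transcript in FPKM (fragments per kilobase of transcript and sequencing depth, a level per length). The deposited values also shared a common upper quartile across the libraries. The largest gain was that of Car3, the carbonic anhydrase of adipocytes. It was at 2808, 1544, 2041 and 1975 FPKM untreated and at 9657, 9485, 12630.0 and 16930.0 FPKM treated. The other gains were Cfd, Fabp4 (the fatty acid carrier of adipocytes), Scd1 (a fatty acid desaturase), Adipoq (adiponectin), Gsn (an actin-severing protein), Dbi (an acyl-CoA carrier), Cidec (a droplet-fusion protein), Apoe and Retn. Fabp4 had a log2 fold change of 0.62 (adjusted p = 0.0494) and its call was lost in 12 of 19 alternatives, among them without treated 2, 3 or 4 or any untreated library (log2 fold change 0.48 to 0.79 and adjusted p 0.012 to 0.142 over the alternatives). Apoe, a lipoprotein component, had 0.63 (SE 0.20), and its call was lost in 5 of 19 alternatives, among them without treated 4 or untreated 1, 2 or 3 (log2 fold change 0.42 to 0.76 and adjusted p 0.00356 to 0.0746 over the alternatives). The largest loss was that of Ftl1, the ferritin light chain that stores iron, at 5851, 4228, 4135 and 4950.0 FPKM untreated and 2222, 2318, 1851 and 1821 FPKM treated. Ftl1 has many processed copies in the genome, so its count is uncertain. Lyz2 (lysozyme of macrophages), Tmsb4x (an actin-binding peptide), Psap (the saposin precursor), Ctsd (cathepsin D), Cd74 and H2-Aa (antigen presentation), Mmp12 and Selenop (a selenium transport protein) also lost. Hp, which encodes haptoglobin, belonged to the 10 largest losses by FPKM but missed the threshold (log2 fold change -0.65, SE 0.27, edgeR adjusted p = 0.0736).

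In each list below, the share of members called is to be read against 18.5% higher and 18.8% lower over all tested genes, and the median against 0.03. Counts without treated 1 and 3 are to be read against 13.2% higher and 12.8% lower of 16648 tested genes. With fewer treated libraries, fewer genes were called in that setting. Breakdown of branched-chain amino acids, an energy pathway of mature adipocytes, had 17 of 19 tested genes higher and 1 lower, with a median log2 fold change of 0.88. Bckdha, a subunit of the branched-chain ketoacid dehydrogenase, was at 86.3, 69.1, 86.8 and 73.7 CPM untreated and 161, 148, 178 and 219 CPM treated (1.16, SE 0.15). Dbt, another subunit of it, had 1.20 (SE 0.16). The member that fell was Bcat1, the cytosolic transaminase, at 11.5, 9.14, 14.9 and 6.94 CPM untreated and 5.17, 5.23, 6.77 and 6.29 CPM treated (-0.86, SE 0.20). Its mitochondrial counterpart Bcat2 rose from 70.4, 71.1, 76.9 and 79.1 CPM to 115, 129, 156 and 212 CPM (1.04, SE 0.21). The transaminases thus moved in opposite directions and neither pair of groups overlapped.

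Of 19 tricarboxylic acid cycle genes 15 were higher and 0 lower (median 0.47), among them Cs, citrate synthase (0.44, SE 0.11), and Pcx, pyruvate carboxylase (0.98, SE 0.21). Of the nuclear-encoded subunits of respiratory complex I, 29 of 37 were higher and 0 lower, of complex III 7 of 8 and of complex IV 8 of 16 with 1 lower. Of ATP synthase subunits 12 of 17 were higher. Without treated 1 and 3 complex I had 21 higher, complex III 4, complex IV 5 and ATP synthase 6. Of 78 mitochondrial ribosomal proteins 23 were higher and 1 lower, a share of 29.5%, and of 91 cytosolic ribosomal proteins 3 were higher and 18 lower, and 2 were lower without treated 1 and 3.

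Of 20 genes of triglyceride synthesis and lipid droplets 12 were higher and 2 lower (median 0.86). Plin1, the droplet coat protein of mature adipocytes, was at 956, 667, 869.8 and 662 CPM untreated and 1628, 1457, 1926 and 2593 CPM treated (1.27, SE 0.20). Plin2, a droplet coat protein found in many cell types and in foam cells, was at 1065, 1098, 1032 and 1096 CPM untreated and 428, 439, 333 and 386 CPM treated (-1.44, SE 0.19). All 4 treated libraries lay above the untreated ones for Plin1 and below them for Plin2. Pck1, which makes glycerol 3-phosphate for triglycerides, rose by 2.47 (SE 0.46), with treated 4 at 3109.8 CPM and the other treated libraries at 717 to 1188 CPM.

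Of 19 lipolysis genes 13 were higher and 1 lower (median 0.77). Adrb3, the adrenergic receptor that triggers lipolysis in adipocytes, was at 25.6, 54.5, 83.4 and 55.5 CPM untreated and 327, 417, 712 and 995 CPM treated, with WT at 543 to 1214 CPM (log2 fold change 3.48, SE 0.46, edgeR adjusted p = 0.000274). The lipases Pnpla2 (1.06, SE 0.25) and Lipe (1.40, SE 0.18) rose.

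Fatty acid synthesis had 9 of 17 genes higher and 0 lower (median 0.42). Acaca, the rate-limiting carboxylase, was at 128, 96.3, 141 and 90.7 CPM untreated and 156, 239, 502 and 416 CPM treated (1.53, SE 0.32), the latter spread over a wide range. Fasn, fatty acid synthase, had overlapping groups (1032 to 1702 CPM untreated, 1372 to 3381 CPM treated; log2 fold change 0.79, SE 0.27, edgeR adjusted p = 0.0356). Its call was lost in 8 of 19 alternatives, among them without treated 3 or 4 or untreated 1, 2 or 4 (log2 fold change 0.50 to 0.97 and adjusted p 0.00816 to 0.118 over the alternatives). Acly, which makes the acetyl-CoA for it, had a log2 fold change of 0.04 (adjusted p = 0.891). Of fatty acid uptake genes 4 of 13 were higher and 1 lower, and 1 was higher without treated 1 and 3. Lpl, the lipase that frees fatty acids from lipoproteins, had 0.51 (SE 0.16), and this call was lost in 7 of 19 alternatives, among them without treated 2 or 3 or any untreated library (log2 fold change 0.38 to 0.58 and adjusted p 0.00222 to 0.0977 over the alternatives). The fatty acid receptor Cd36 had -0.04 (adjusted p = 0.806). Of 20 beta-oxidation genes 9 were higher and 1 lower.

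Of 7 tested caveola genes 6 were higher and 1 lower, with Cav1, the coat protein of these plasma membrane pits, at 1985, 2247, 2273 and 2214 CPM untreated and 4094, 4131, 4325 and 5072 CPM treated (1.02, SE 0.13). Insulin signalling had 11 of 22 genes higher and 4 lower, with 2 lower without treated 1 and 3. Slc2a4, the insulin-regulated glucose transporter, was at 60, 51.2, 57.5 and 40.4 CPM untreated and 151, 158, 160.5 and 225 CPM treated (1.73, SE 0.17). Slc2a1, the transporter of most cells, was at 36.7, 22.7, 20.6 and 16.3 CPM untreated and 17.1, 16.1, 15 and 16 CPM treated (log2 fold change -0.58, SE 0.20, edgeR adjusted p = 0.0398). Its groups overlapped, and its call was lost in 11 of 19 alternatives, among them without any treated library or untreated 1 or 2 (log2 fold change -0.76 to -0.31 and adjusted p 0.00971 to 0.152 over the alternatives). Among hexokinases Hk2, of muscle and fat, rose (1.05, SE 0.17), and Hk3, of myeloid cells, fell (-3.21, SE 0.53). Of 24 glycolysis genes 5 were higher and 6 lower (median 0.12, -0.01 by library total), and 1 was lower without treated 1 and 3. Ldhb, a lactate dehydrogenase subunit, rose from 28.9, 25.2, 27.2 and 26.6 CPM to 73.1, 89.9, 81.7 and 102 CPM (1.68, SE 0.12), and Pkm, pyruvate kinase, fell (-0.63, SE 0.16), a call lost without treated 1 and 3 (-0.57, adjusted p = 0.0728).

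Of 19 adipokine genes 9 were higher and 2 lower. Rbp4, the retinol carrier, was at 91.1, 91, 126 and 108 CPM untreated and 538, 453, 477 and 634 CPM treated (2.34, SE 0.22). Lep, which encodes the satiety hormone leptin, was at 2333, 2472, 3032 and 2595 CPM untreated and 2509, 3349, 1734 and 1623 CPM treated, and WT libraries were at 1252 to 2596 CPM. The leptin groups overlapped and the difference missed the threshold (log2 fold change -0.18, SE 0.26, edgeR adjusted p = 0.62). Metrnl, a secreted protein also made by macrophages, fell (-2.29, SE 0.25). Genes tied to the growth of fat mass had 6 of 9 higher and 0 lower. Peg3, an imprinted zinc finger gene, was at 45.5, 19.9, 25.5 and 35.3 CPM untreated and 188, 143, 187 and 141 CPM treated (2.38, SE 0.29), and Nnat, an imprinted membrane protein gene, rose by 2.12 (SE 0.29). Mest, another imprinted gene that marks expanding adipocytes, had 1.40 (SE 0.44), and this call was lost in 6 of 19 alternatives, among them without treated 1 or untreated 1, 2 or 4 (log2 fold change 1.22 to 1.60 and adjusted p 0.00191 to 0.0786 over the alternatives). Adipogenic transcription factors had 12 of 20 higher and 1 lower, with Pparg at 0.94 (SE 0.22) and Cebpa at 0.85 (SE 0.21).

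Brown and beige fat genes were called at a rate near that of all genes, 2 higher and 2 lower of 14, with 1 higher without treated 1 and 3. Ppargc1a, a coactivator of mitochondrial biogenesis, was at 1.75, 1.98, 1.45 and 0.755 CPM untreated and 3.67, 3.1, 6.93 and 4.51 CPM treated (1.62, SE 0.35). Ucp1, the uncoupling protein of brown fat, was at 3.92, 0.395, 2.55 and 0.661 CPM untreated and 0.103, 0, 0.106 and 0.0525 CPM treated (log2 fold change -4.70, edgeR adjusted p = 0.00162). The treated values stand for at most a few counts per library.

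Glutathione transferases, which conjugate electrophiles, had 11 of 15 genes higher and 0 lower (median 1.03). Gsta3 was at 43.9, 28.3, 24.9 and 19.5 CPM untreated and 127, 93.3, 161 and 155 CPM treated (2.20, SE 0.29), and its near-identical family members make the split of reads uncertain. Antioxidant enzymes had 11 of 24 higher and 6 lower. Cat, catalase, rose (0.85, SE 0.19). Prdx1, a peroxiredoxin, was at 1766, 889, 793 and 767 CPM untreated and 465, 449, 461 and 466 CPM treated (-1.20, SE 0.23). Srxn1, which repairs peroxiredoxins (-1.53, SE 0.28), Txnrd1, thioredoxin reductase (-0.95, SE 0.19), and their known regulator Nfe2l2 (-0.63, SE 0.09) fell as well. Hmox1, which degrades heme, was at 446, 172, 177 and 191 CPM untreated and 51.7, 48, 31.5 and 32.6 CPM treated (-2.59, SE 0.46). Untreated 1 was the highest untreated library for Prdx1, Srxn1, Txnrd1 and Hmox1, and the treated libraries still lay below the other 3.

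**Figure D2:**
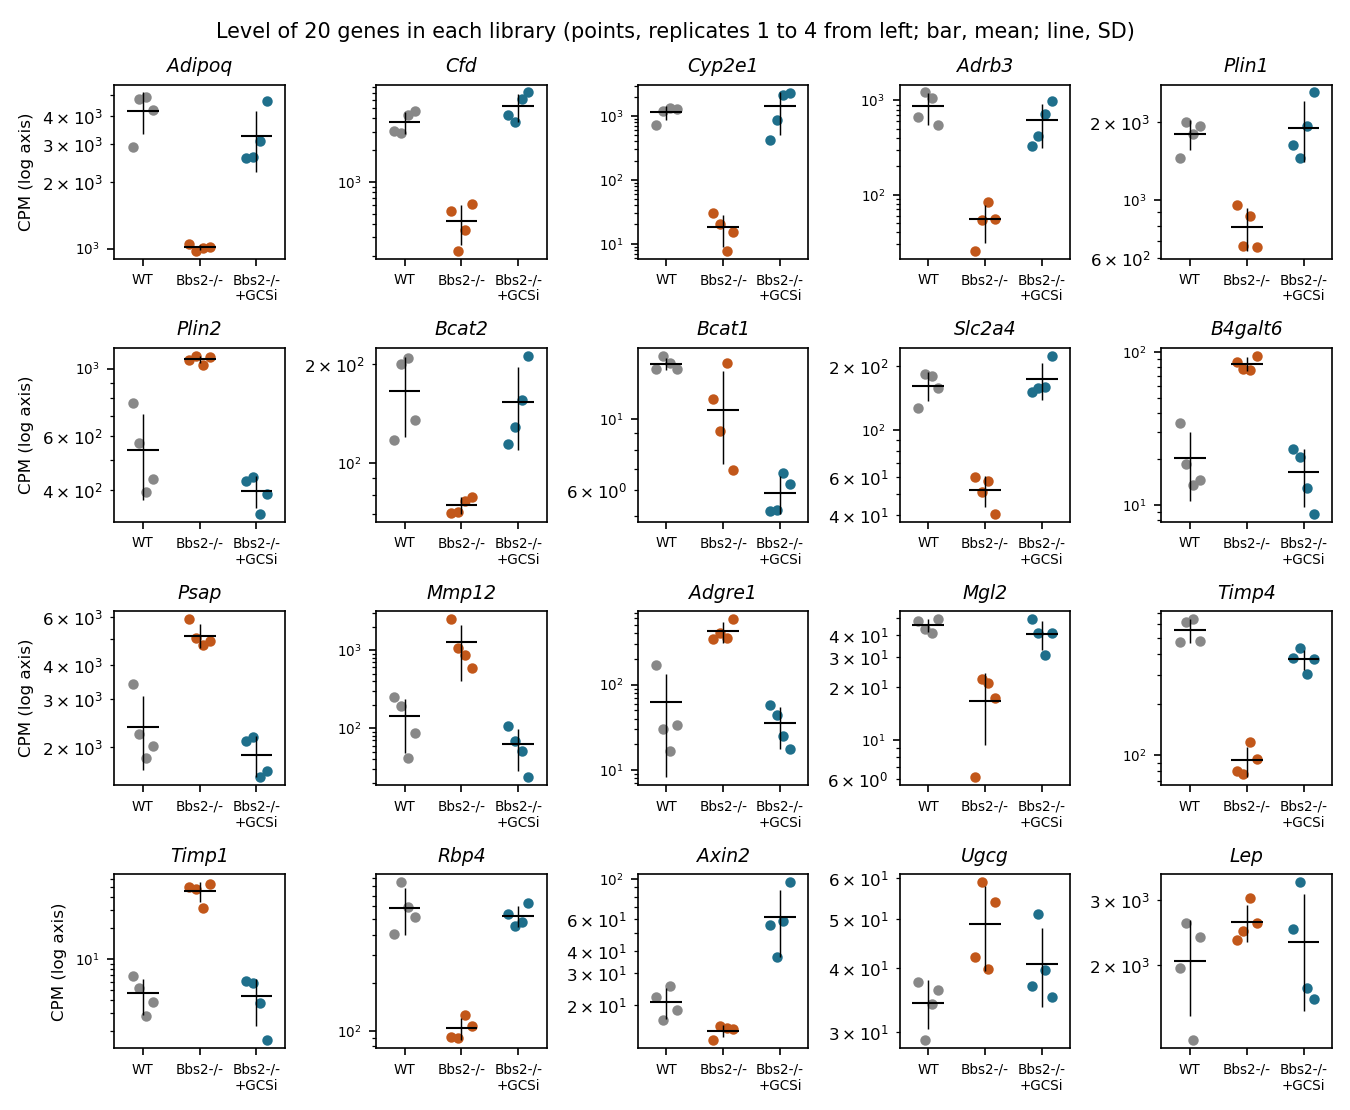
CPM on log axes (vertical; each panel has its own range) of 20 genes in WT, untreated Bbs2-/- and treated Bbs2-/- libraries, with 4 points per group, the mean as a bar and the SD as a line whose lower end is drawn no lower than 0.5 times the lowest point. The treated and untreated points do not overlap in 18 panels and overlap for Ugcg and Lep.

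The sphingolipid genes were ordered along the pathway. Of 13 tested genes of ceramide synthesis 2 were higher and 4 lower (median -0.07), with 2 lower without treated 1 and 3. Sptlc2, a subunit of the first enzyme, serine palmitoyltransferase, was at 79.1, 80.5, 72.5 and 76.2 CPM untreated and 49.9, 46.1, 45.1 and 43.2 CPM treated (-0.74, SE 0.08). Kdsr, the next enzyme, rose (0.89, SE 0.16), and Cers6, a ceramide synthase with a preference for palmitoyl-CoA, fell (-1.55, SE 0.23). In sphingomyelin and ceramide turnover 2 of 15 genes were higher, 1 without treated 1 and 3, and 7 lower. Smpd1, the acid sphingomyelinase of lysosomes, was at 60.7, 60.6, 73 and 59.9 CPM untreated and 89.8, 81.7, 98.6 and 104 CPM treated (0.56, SE 0.15), a call lost without treated 1 and 3 (0.57, adjusted p = 0.0508). Asah1, the acid ceramidase of the same compartment, was at 198, 196, 225 and 147 CPM untreated and 96.3, 99.4, 66.9 and 82.1 CPM treated (-1.15, SE 0.17). Cerk, ceramide kinase, fell (-1.77, SE 0.24).

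Of 13 tested genes of glycosphingolipid synthesis, of 18 listed, 1 was higher and 6 were lower (median -0.59). The enzymes just after glucosylceramide are the lactosylceramide synthases, and both tested genes for them fell. B4galt5 was at 107, 96.7, 74.7 and 79 CPM untreated and 27.1, 22.6, 22.1 and 15.5 CPM treated (-2.03, SE 0.24), and B4galt6 was at 85.8, 77.4, 76.2 and 94.4 CPM untreated and 23.1, 20.7, 12.9 and 8.76 CPM treated (-2.35, SE 0.34). St3gal5, which makes the ganglioside GM3 from lactosylceramide, was at 13.1, 12.4, 12.2 and 9.58 CPM untreated and 15.5, 13.3, 9.42 and 9.49 CPM treated, a difference that missed the threshold (log2 fold change 0.01, SE 0.19, edgeR adjusted p = 0.96). B4galnt1, which extends GM3 to complex gangliosides, fell (-2.06, SE 0.34), and St3gal2, a sialyltransferase of later steps, was the member that rose (0.61, SE 0.13). The difference between Ugcg and these genes was not tested.

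Of 14 genes of glycosphingolipid breakdown 8 were lower and 1 was higher (median -0.48). Hexa, a subunit of an enzyme that degrades gangliosides, was at 437, 419, 406 and 471 CPM untreated and 162, 163, 115 and 127 CPM treated (log2 fold change -1.61, SE 0.15, edgeR adjusted p = 5.03e-05). Gla, the alpha-galactosidase (-1.93, SE 0.32), and Galc, the galactosylceramidase (-1.58, SE 0.25), fell as well. Psap, whose product is cut into the 4 saposins, was at 5926, 5025, 4729 and 4901 CPM untreated and 2095, 2182, 1548 and 1634 CPM treated (-1.46, SE 0.20). Gba2, a non-lysosomal enzyme that removes glucose from glucosylceramide, was at 19.4, 22.6, 23.8 and 22.7 CPM untreated and 24.8, 35, 34.5 and 35 CPM treated (0.55, SE 0.16). Its call was lost in 4 of 19 alternatives, among them without treated 4 or untreated 1 or 2 (log2 fold change 0.41 to 0.69 and adjusted p 0.005 to 0.0592 over the alternatives). Macrophage genes moved with these lists: the 16 macrophage core genes summed to 6925 to 9864 CPM untreated and 792 to 2022 CPM treated, and their part in the sphingolipid and lysosome results was not tested.

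**Figure D3:**
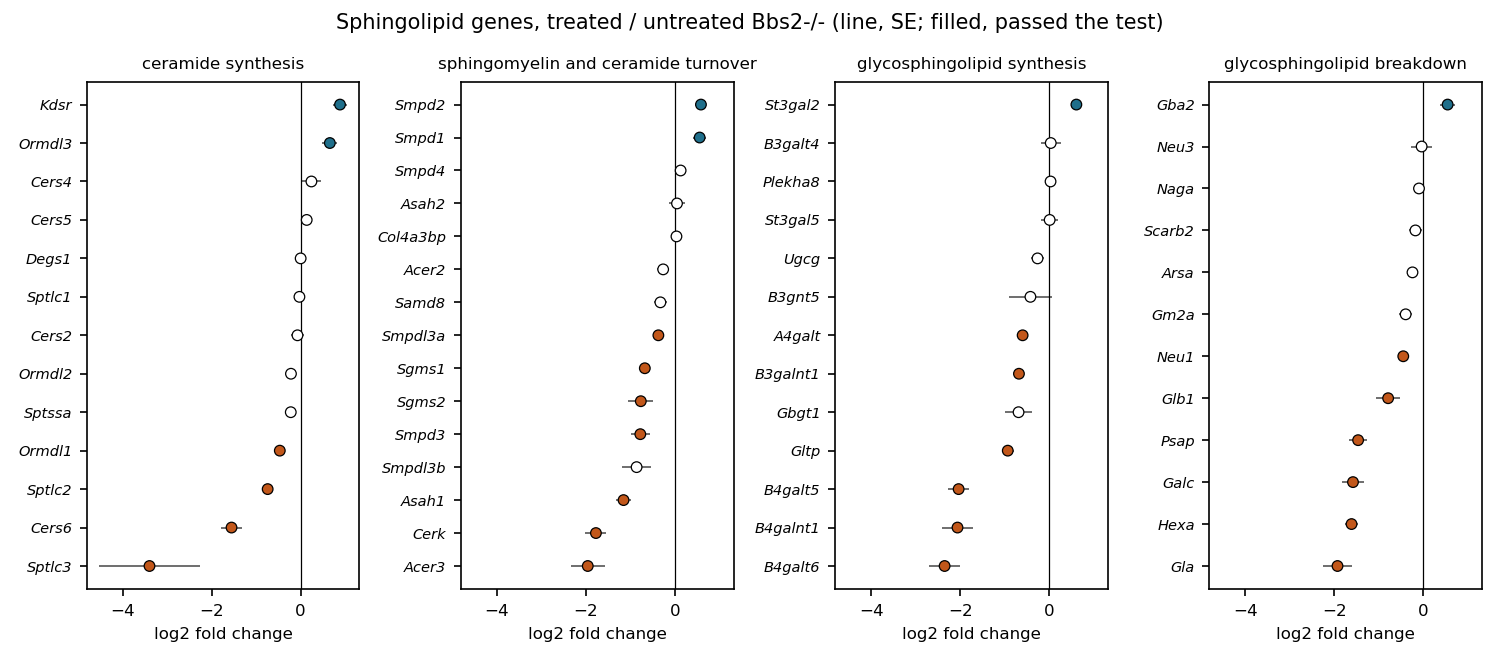
Log2 fold change of treated over untreated Bbs2-/- libraries (horizontal; line, SE) of tested genes in 4 sphingolipid lists, without 2 genes of the breakdown list that are not reported here. Filled points passed the test (blue higher, orange lower) and open points did not; Ugcg is open, and Gla is the lowest gene drawn in the breakdown panel.

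Lysosomal hydrolases and membrane proteins had 29 of 36 genes lower and 2 higher (median -0.80). Many of these genes are known targets of MiT/TFE factors, which bind the E-box core CACGTG. The promoter of Lamp1, which encodes an abundant protein of the lysosome membrane, is shown because it holds 4 copies of that core, in capitals, at 61, 45, 28 and 15 bases before the start site (250 bases before the start, chr8:13158911-13159160, + strand, RefSeq, GRCm38.p6).
Lamp1: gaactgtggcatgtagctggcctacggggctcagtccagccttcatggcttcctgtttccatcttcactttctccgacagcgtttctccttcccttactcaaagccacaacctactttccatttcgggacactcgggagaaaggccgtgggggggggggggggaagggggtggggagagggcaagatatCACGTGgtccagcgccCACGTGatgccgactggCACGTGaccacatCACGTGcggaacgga
Lamp1 was at 1186, 1062, 1124 and 1018 CPM untreated and 725, 679, 681 and 724 CPM treated (-0.64, SE 0.10). The core, which reads alike on both strands, was present in 6 of the 24 list members with a sequence and a single start site (25%) and in 760 of 9317 such promoters of all tested genes (8.16%). Among the 19 of these members that were lower, 2 held it (10.5%), so the members that fell held the letters at a share close to that of all genes. Glb1, the beta-galactosidase, was the other of these 2, and its groups overlapped (34 to 77.1 CPM untreated, 18.9 to 44.6 CPM treated; -0.79, SE 0.27). Its call was lost in 10 of 19 alternatives, among them without treated 3 or 4 or untreated 1, 3 or 4 (log2 fold change -0.98 to -0.58 and adjusted p 0.0156 to 0.122 over the alternatives). The other 4 holders were among the 5 members with a sequence that were not lower: Gaa, Mcoln1, a cation channel, and Naglu and Sgsh, which degrade heparan sulfate.

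Of 12 genes of the MiT/TFE factors and their nutrient sensors 8 were lower and 0 higher. Mitf was at 67.2, 59.3, 53.1 and 53.3 CPM untreated and 13.8, 14.4, 12.9 and 11.6 CPM treated (-2.14, SE 0.18), Tfeb fell less (-0.76, SE 0.15), and Rragd, a GTPase that binds these factors to the lysosome, fell by 2.54 on the log2 scale. Of 13 cathepsins 9 were lower, with Ctss, the cathepsin of antigen-presenting cells, at 1145, 1028, 711 and 884 CPM untreated and 172, 118, 88.5 and 42.1 CPM treated (-3.17, SE 0.51). Ctsd fell less (-1.39, SE 0.16). Of 19 subunits of the vacuolar proton pump 9 were lower and 2 higher. Gaa, the glycogen-degrading acid glucosidase, did not pass (0.14, adjusted p = 0.393). Within the list of lipid-associated macrophages Acp5, a lysosomal acid phosphatase, was the member that rose, at 231, 177, 189 and 202 CPM untreated and 388, 427, 369 and 411 CPM treated (1.0, SE 0.14).

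Of 16 macrophage core genes 15 were lower and 0 higher (median -2.76), with or without treated 1 and 3. In these bulk libraries fewer cells of a type and less RNA per cell cannot be told apart. Adgre1, the F4/80 antigen, was at 342, 400.1, 352 and 590.4 CPM untreated and 57.1, 44.2, 25 and 17.4 CPM treated (-3.55, SE 0.71). Csf1r, the receptor that macrophages need to survive, was at 502, 531, 521 and 663 CPM untreated and 171, 129, 89.9 and 77.7 CPM treated (-2.25, SE 0.38). In both genes the treated libraries were ordered alike, with treated 1 the highest and treated 4 the lowest. Mertk, a receptor for dying cells, was the core gene that did not pass, at 47.9, 40.5, 55.8 and 51.1 CPM untreated and 38.9, 38, 54.4 and 45.8 CPM treated (-0.14, adjusted p = 0.601).

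Lipid-associated macrophages had 13 of 14 genes lower. Gpnmb, a membrane glycoprotein of lipid-laden macrophages, was at 2321, 1266, 1195 and 629 CPM untreated and 135, 74.8, 47 and 12.6 CPM treated (-4.33, SE 1.11). Trem2, the lipid-sensing receptor of these cells, was at 295, 243, 227 and 294 CPM untreated and 108, 121, 71.5 and 33.5 CPM treated (-1.66, SE 0.30), and Cd9 fell as well (-2.32, SE 0.26). Resident macrophages had 7 of 14 genes lower and 2 higher, with 4 lower without treated 3 or untreated 4 and 3 lower without treated 1 and 3. Folr2, a folate receptor (-3.23, SE 0.42), and Mrc1, the mannose receptor (-2.01, SE 0.37), fell. The 2 that rose were lectin genes, Mgl2 at 6.13, 22.3, 21.3 and 17.3 CPM untreated and 49.2, 40.8, 30.7 and 41 CPM treated (1.27, SE 0.31) and Cd209d at 1.13, 2.12, 2.1 and 2.45 CPM untreated and 9.73, 5.61, 5.24 and 11 CPM treated (2.01, SE 0.38). With the replicate block the Mgl2 call was lost (1.37, adjusted p = 0.0512).

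Fc receptors and their adaptors were lower in 17 of 17 tested genes (median -2.57), including Fcer1g, the common signalling chain (-2.57, SE 0.42), and the kinase Syk (-2.16, SE 0.36). All 6 tested genes of the phagocyte NADPH oxidase were lower, with Cybb, its catalytic subunit, at 306, 308, 309 and 242 CPM untreated and 55.2, 41.4, 34.7 and 15.6 CPM treated (-2.99, SE 0.50). The inflammasome and interleukin 1 family had 15 of 17 lower. These included the sensor Nlrp3 (-2.50, SE 0.28), the receptor antagonist Il1rn (-2.79, SE 0.74) and the alarmin Il33 (-1.78, SE 0.26). Toll-like receptor genes had 15 of 18 lower and 1 higher. Tlr2, which senses bacterial lipopeptides, fell from 21.5, 24.8, 22.6 and 31.4 CPM to 11.8, 8.44, 5.93 and 4.56 CPM (-1.70, SE 0.27). Tlr5, the flagellin receptor, rose from 6.34, 5.63, 7.29 and 7.46 CPM to 12.9, 10.3, 13.7 and 15.4 CPM (0.97, SE 0.25), a call that was lost without treated 1 and 3 (0.96, adjusted p = 0.0523).

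Of 20 genes of tumor necrosis factor and NF-kB 15 were lower and 0 higher. Tnf was at 8.04, 5.09, 4.39 and 6.75 CPM untreated and 2.17, 1.63, 3.33 and 1.31 CPM treated (-1.52, SE 0.39), and Nfkb1 fell by less (-0.59, SE 0.11). CC chemokines and receptors had 11 of 23 lower and 1 higher. Ccl2, which attracts monocytes, was at 53.6, 71.4, 62.4 and 67.7 CPM untreated and 27.7, 23.4, 12.5 and 5.4 CPM treated (-1.88, SE 0.39). Its receptor Ccr2 had overlapping groups, 49.7, 134, 96.9 and 134 CPM untreated and 84, 89.5, 45.2 and 28.2 CPM treated (-0.75, adjusted p = 0.162). Of 24 complement genes 15 were lower and 2 higher. The genes that rose were Cfd and C2, the latter at 35.9, 38.3, 36.6 and 31.2 CPM untreated and 97.9, 67.4, 181 and 223 CPM treated (2.00, SE 0.30).

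Mast cell genes were lower in 6 of 8, with Cpa3 at 31.3, 7.21, 7.54 and 3.82 CPM untreated and 0.414, 0.653, 0.159 and 0.682 CPM treated, untreated 1 standing highest. B and plasma cell genes were lower in 8 of 14, or 5 without untreated 2 or without treated 1 and 3. Immunoglobulin segments, whose reads are shared between copies, were lower in 15 of 25. Without treated 1 and 3 it was 38 of 59, but that set was filtered anew on low counts and pseudogenes were not left out of it. These segment counts therefore cannot be compared. Jchain, the joining chain of secreted antibodies, was at 56.1, 47.9, 72.2 and 92.5 CPM untreated and 1.76, 3.1, 19.5 and 2.52 CPM treated (-3.32, SE 0.67), treated 3 being the highest treated library. T and NK cell genes had 5 of 20 lower and 1 higher, and 9 lower without treated 1 and 3. Dendritic cell genes had 2 of 12 higher and 2 lower. A member of that list that rose was Itgae, the integrin CD103, at 2.47, 2.32, 2.85 and 2.12 CPM untreated and 5.54, 4.79, 4.34 and 4.83 CPM treated (1.0, SE 0.19). MHC class II presentation had 11 of 13 lower, with H2-Aa at 703, 1570.0, 1174 and 1385 CPM untreated and 548, 456, 289 and 225 CPM treated (-1.67, SE 0.32), and MHC class I presentation 6 of 15. For H2-Aa untreated 1 was the lowest untreated library, unlike Mmp12 and Gpnmb, for which it was the highest. Reads of MHC genes can be shared between alleles and copies.

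**Figure D4:**
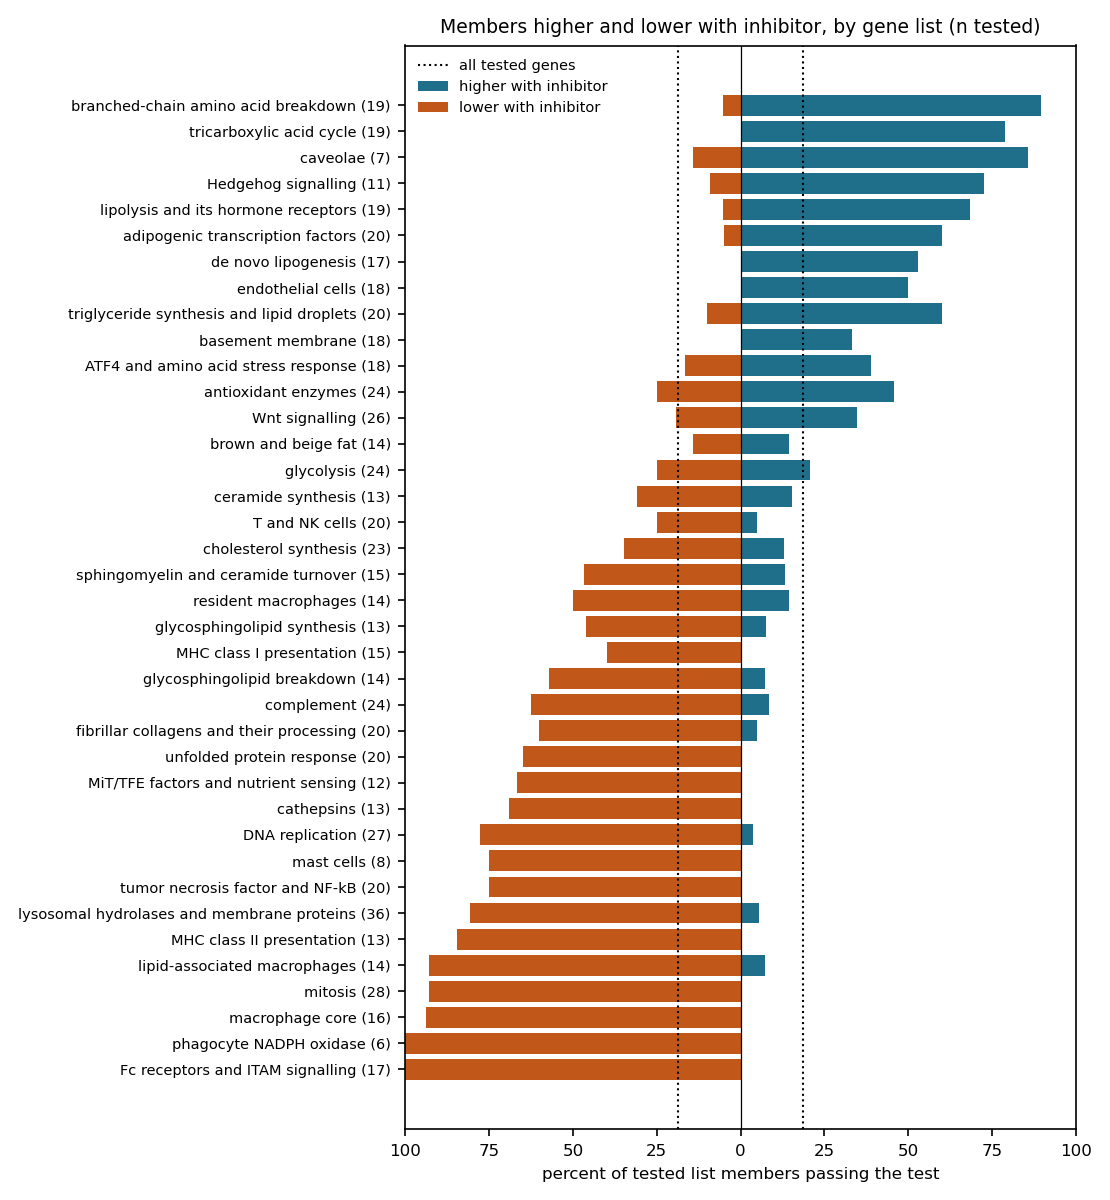
Percent of tested members called higher (blue, right) and lower (orange, left) with the inhibitor in 38 gene lists, with the number tested in brackets. Dotted lines mark 18.5% higher and 18.8% lower over all tested genes; Fc receptors and the phagocyte NADPH oxidase reach 100% lower.

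Genes of DNA replication were lower in 21 of 27 and higher in 1, and genes of mitosis were lower in 26 of 28 (median -1.37). Without treated 1 and 3 the counts were 15 and 13 lower, and without treated 4 mitosis had 17 lower. Pcna, the sliding clamp of DNA polymerases, was at 164, 111, 118 and 133 CPM untreated and 50.4, 45, 52 and 51 CPM treated (-1.41, SE 0.17), and Mcm3, a subunit of the replicative helicase, fell (-1.34, SE 0.18). Mki67, the proliferation antigen, was at 51.2, 47.6, 43.8 and 44.4 CPM untreated and 15.1, 17.3, 24.3 and 7.71 CPM treated (log2 fold change -1.54, SE 0.50, edgeR adjusted p = 0.0326). This call was lost in 9 of 19 alternatives, among them without treated 1, 2 or 4 or any untreated library (log2 fold change -1.88 to -1.14 and adjusted p 0.00354 to 0.0919 over the alternatives). Ccnb1, cyclin B1, fell (-1.64, SE 0.42).

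Many mitotic genes are known to carry a cell cycle homology region, whose core is TTTGAA, near the start site. The promoters of Kif2c, a microtubule-depolymerising kinesin, Ube2c, the ubiquitin carrier of the anaphase-promoting complex, and Kif11, the motor that separates spindle poles, are shown as examples. They were picked by small p from the genes that fell and hold the core. Each holds it once in 250 bases (in capitals, where TTCAAA is the other strand), at 103, 29 and 19 bases before the start. The windows are from RefSeq, GRCm38.p6 (Kif2c chr4:117178773-117179022, - strand, Ube2c chr2:164769679-164769928, + strand, and Kif11 chr19:37376132-37376381, + strand).
Kif2c: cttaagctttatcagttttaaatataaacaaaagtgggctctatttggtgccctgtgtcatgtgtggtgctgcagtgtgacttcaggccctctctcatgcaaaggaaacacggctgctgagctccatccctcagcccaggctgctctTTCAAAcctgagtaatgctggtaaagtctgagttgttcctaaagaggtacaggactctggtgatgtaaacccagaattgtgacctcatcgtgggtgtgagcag
Ube2c: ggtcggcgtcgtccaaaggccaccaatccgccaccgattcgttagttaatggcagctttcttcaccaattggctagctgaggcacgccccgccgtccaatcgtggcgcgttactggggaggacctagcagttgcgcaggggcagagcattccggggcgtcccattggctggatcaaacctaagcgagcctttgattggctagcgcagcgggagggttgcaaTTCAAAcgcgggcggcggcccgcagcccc
Kif11: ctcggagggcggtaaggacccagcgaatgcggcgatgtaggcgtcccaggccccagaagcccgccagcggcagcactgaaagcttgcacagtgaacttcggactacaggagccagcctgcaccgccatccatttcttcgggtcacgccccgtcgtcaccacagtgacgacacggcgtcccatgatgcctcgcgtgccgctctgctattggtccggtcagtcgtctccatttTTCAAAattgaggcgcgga
The Kif2c window lies inside the gene as placed by GENCODE M21 (117159639 to 117182639, - strand). The Ube2c window runs past the GENCODE start of Ube2c (164769898, + strand), and its marked core lies inside that gene. The marked cores of Kif2c and Ube2c are therefore upstream of the RefSeq start only. Kif2c was at 3.97, 5.38, 4.64 and 4.72 CPM untreated and 0.724, 1.09, 1.69 and 0.839 CPM treated (-2.10, SE 0.43). Ube2c was at 8.45, 9.58, 7.89 and 12.1 CPM untreated and 5.33, 5.88, 3.6 and 3.3 CPM treated (-1.07, SE 0.24), and Kif11 at 12, 9.83, 9.43 and 10.2 CPM untreated and 2.54, 4.95, 3.28 and 1.63 CPM treated (-1.74, SE 0.42). The Kif11 call was lost without treated 1 and 3 (-1.62, adjusted p = 0.0622). The core was present on either strand in 9 of 22 mitosis genes with a sequence and a single start site (40.9%), in 8 of the 20 that were lower (40%), and in 1052 of 9317 promoters of all tested genes (11.3%). A match of letters is a description of the window and not a measured binding site.

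Cell cycle inhibitors had 6 of 14 genes lower and 2 higher. Cdkn2a, a marker of senescent cells, was at 4.48, 1.33, 1.55 and 2.27 CPM untreated and 0.466, 0.327, 0.318 and 0.262 CPM treated (-2.79, SE 0.48). Cdkn1a, the inhibitor p21, fell (-0.78, SE 0.18), and Cdkn2c, the inhibitor p18, rose from 84.1, 70, 72.8 and 82.8 CPM to 154, 185, 219 and 209.6 CPM (1.31, SE 0.14).

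Of 20 genes of fibrillar collagens and their processing 12 were lower and 1 higher. Col1a1 was at 628, 712, 686 and 738 CPM untreated and 327, 297, 167 and 145 CPM treated (-1.56, SE 0.32), and Col3a1 fell (-1.26, SE 0.24). Fn1, fibronectin, was at 1475, 1782, 1289 and 1308 CPM untreated and 406, 282, 389.5 and 245 CPM treated (-2.15, SE 0.20), and Dcn, the proteoglycan decorin, had overlapping groups (-0.20, adjusted p = 0.43). Of 25 matrix glycoproteins and proteoglycans 11 were lower and 1 higher. Of 18 basement membrane genes 6 were higher and 0 lower, and 3 were higher without treated 1 and 3. The 2 minor collagen IV chains Col4a3, at 0.67, 0.79, 1.1 and 0.378 CPM untreated and 5.17, 3.27, 4.6 and 4.14 CPM treated (2.54, SE 0.46), and Col4a4, at 2.11, 1.14, 1.25 and 0.708 CPM untreated and 11.9, 9.58, 10.5 and 5.3 CPM treated (2.84, SE 0.43), had the highest fold changes of that list. Metalloproteinases and inhibitors had 12 of 22 lower and 4 higher. Timp1, an inhibitor induced in inflammation, was at 50.6, 47.6, 31.4 and 54.4 CPM untreated and 6.21, 5.88, 3.76 and 1.63 CPM treated (-3.40, SE 0.39). Timp4, the inhibitor of adipocytes, was at 80.7, 77.3, 119 and 94 CPM untreated and 379, 431, 304 and 374 CPM treated (2.00, SE 0.17).

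Hedgehog signalling passes through primary cilia, where the receptor Ptch1 holds back Smo and the Gli factors act on targets that include Ptch1 and Gli1. Of 11 tested genes 8 were higher and 1 lower (median 0.71). Gli1 was at 0.309, 0.593, 0.349 and 0.708 CPM untreated and 3.05, 1.74, 2.17 and 1.31 CPM treated (2.06, SE 0.50), a call lost without treated 1 and 3 (1.65, adjusted p = 0.0643). Smo was at 27.9, 30, 34.5 and 28.1 CPM untreated and 51.2, 53.6, 59.5 and 64.1 CPM treated (0.92, SE 0.12). Ptch1 (0.77, SE 0.16) and Gli2 (1.43, SE 0.34) rose too, and Gas1, a coreceptor, fell (-0.42, SE 0.09).

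Wnt signalling had 9 of 26 genes higher and 5 lower, with a median of -0.02; 5 were higher without untreated 1 or 4, or with scaling by library total. Axin2, a feedback inhibitor that Wnt signals induce, was at 12.7, 15.3, 14.8 and 14.6 CPM untreated and 55.5, 36.9, 58.8 and 96.3 CPM treated, with WT at 16.4 to 25.5 CPM (log2 fold change 2.11, SE 0.25, edgeR adjusted p = 0.000132). Sfrp2, a secreted Wnt antagonist, fell from 6.29, 17.8, 9.18 and 17.3 CPM to 4.61, 3.05, 4.87 and 5.35 CPM (-1.50, SE 0.32). Of 25 tested Hox genes, which keep the positional identity of fat cells, 15 were higher and 0 lower (median 0.82). The BBSome genes were called near the rate of all genes, 2 higher and 2 lower of 13, and 1 and 0 without treated 1 and 3. Intraflagellar transport genes had 4 of 22 higher and 1 without treated 1 and 3. Ciliated epithelium genes had 5 of 18 higher and 0 without them; Foxj1 was at 0, 0, 0.0998 and 0.0472 CPM untreated and 7.97, 0.0544, 7.41 and 0 CPM treated (adjusted p = 0.0399), a call lost in 10 of 17 alternatives, among them without treated 1 or 3 or any untreated library (log2 fold change -0.37 to 7.36 and adjusted p 0.0108 to 0.945 over the alternatives). Krt18, an epithelial keratin named after its values were seen, was at 2.22, 0.889, 1.15 and 1.23 CPM untreated and 22.5, 0.817, 7.3 and 1.52 CPM treated and did not pass (adjusted p = 0.0597).

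Endothelial genes had 9 of 18 higher and 0 lower (median 0.52), but Pecam1, the pan-endothelial adhesion molecule, did not pass (0.21, adjusted p = 0.414). Vegfa, the vascular growth factor, was at 102, 112, 104 and 117 CPM untreated and 286, 261, 314 and 418 CPM treated (1.55, SE 0.25). Red blood cell genes moved with these: 4 of 5 were higher and 1 without treated 1 and 3. Hbb-bs, adult beta globin, was at 259.5, 355, 335 and 450.2 CPM untreated and 1433, 602, 703 and 1154 CPM treated (1.48, SE 0.39), and Alas2, of erythroid heme synthesis, at 5.93, 8.2, 8.44 and 8.21 CPM untreated and 34.1, 11.9, 17.2 and 25.7 CPM treated, a call lost without treated 1 and 3 (1.31, adjusted p = 0.0802). The part of blood left in the tissue was not tested. Nuclear hormone receptors had 7 of 24 higher and 0 lower, but 3 or 4 higher without treated 4 or untreated 1, 3 or 4, and 3 with scaling by library total.

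The unfolded protein response of the endoplasmic reticulum had 13 of 20 genes lower and 0 higher. Hspa5, its main chaperone, was at 695, 870.1, 889 and 690.3 CPM untreated and 428, 394, 390.0 and 370.0 CPM treated (-0.99, SE 0.13), and Sdf2l1, an inducible cofactor, fell (-1.88, SE 0.21). Total Xbp1 did not pass (-0.00, adjusted p = 0.984). In the ATF4 and amino acid response 7 of 18 genes were higher and 3 lower. The serine synthesis genes Phgdh (1.46, SE 0.20) and Psat1 (0.97, SE 0.13) and the asparagine synthetase Asns (1.14, SE 0.21) rose. Atf3, a stress-induced factor, was at 187, 153, 127 and 154 CPM untreated and 21.2, 19.2, 14.8 and 5.25 CPM treated (-3.36, SE 0.52), the stress hormone Gdf15 fell (-2.95, SE 0.57), and Atf4 itself did not pass (0.03, adjusted p = 0.863).

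Cholesterol synthesis had 8 of 23 genes lower and 3 higher, with 5 lower without treated 4 or without treated 1 and 3. Genes of cholesterol efflux and storage had 11 of 19 lower and 3 higher. Soat1, which esterifies cholesterol for storage, was at 152, 121, 120.4 and 116 CPM untreated and 23.9, 20.5, 15.3 and 7.5 CPM treated (-2.92, SE 0.51), and the sterol exporter Abcg1 fell (-1.76, SE 0.33). Abca1, the exporter that loads lipid onto apolipoproteins, was at 298, 322, 327 and 298 CPM untreated and 248, 289, 296 and 287 CPM treated. Its groups did not overlap, but the difference was small and did not pass (-0.15, adjusted p = 0.423).

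The treated libraries differed among themselves in how far they lay from the untreated ones. Treated 4 was the highest treated library for 1585 of the 2947 genes called higher (53.8%) and the lowest for 1650 of the 3000 called lower (55%). Treated 1 was in that position for 334 (11.3%) and 244 (8.1%). The median SD of log2 CPM was 0.23 in treated and 0.18 in untreated libraries, and it was larger in treated libraries for 64.5% of genes. With treated 4 left out 2383 genes were higher and 2528 lower. The labels give no difference between the treated samples beyond their number.

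**Figure D5:**
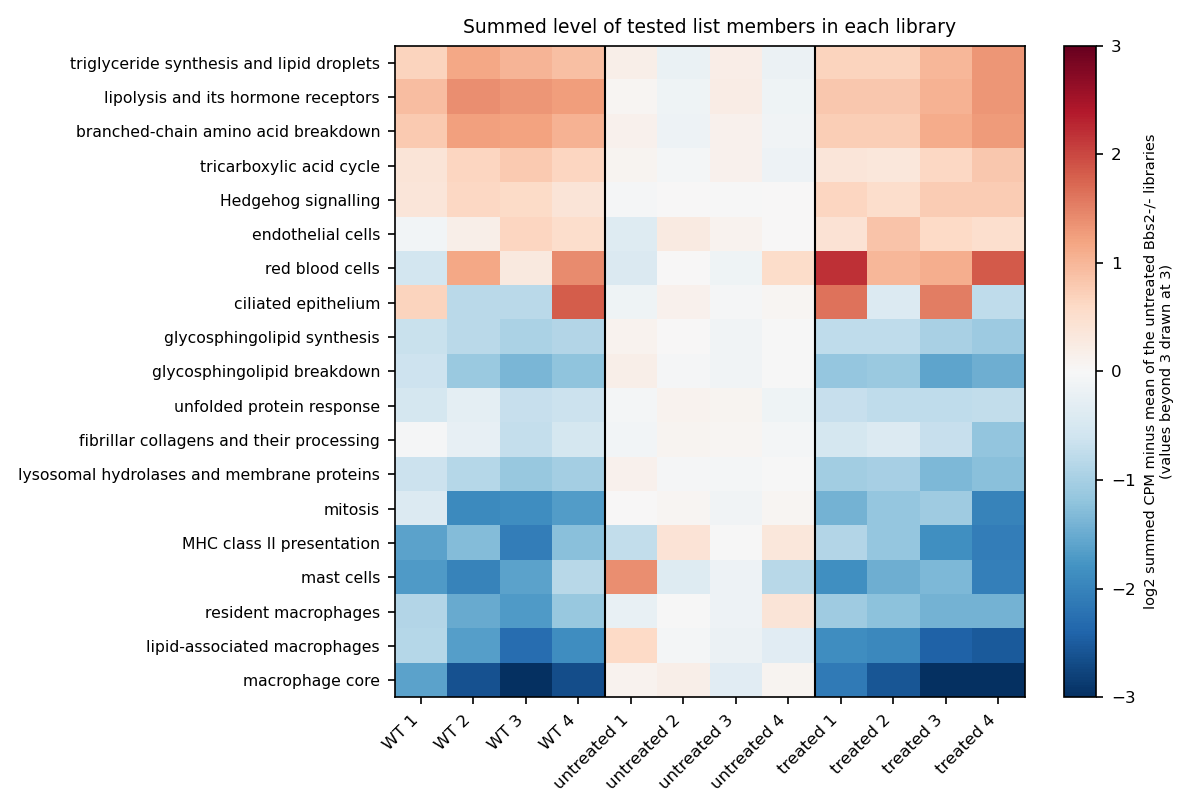
Log2 of the summed CPM of the tested members of 19 lists (rows) in the 12 libraries (columns), minus the mean of the untreated Bbs2-/- libraries; red is higher and blue lower, and values beyond 3 are drawn at 3. Treated columns are blue in the macrophage, lysosome and mitosis rows and red in the adipocyte rows, and treated 1 and treated 3 are red in the ciliated epithelium row.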

How the data were processed

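Messenger RNA libraries were made with a stranded kit, per the labels' protocols. The authors deposited estimated counts per gene, of which 93 to 94.2% were whole numbers (tolerance 1e-06), and a table of log2 FPKM values; per the submitters' processing notes the build is mm10, while the aligner, the counter and its strand setting remain not given in the sources used here. Antisense and overlapping genes are therefore uncertain. Counts were rounded, symbols and positions came from GENCODE M21 (52207 of 53431 genes matched), and genes were kept by edgeR's filter on low counts (15968 kept). R 4.3.3, edgeR 4.0.16 (TMM scaling, robust quasi-likelihood test, all 12 libraries, contrast of treated minus untreated), limma 3.58.1 and DESeq2 1.42.0 were used, with Benjamini-Hochberg adjustment over all tested genes. CPM are scaled by TMM. FPKM are 2 to the power of the deposited log2 value. The log2 values had an upper quartile of 3.96 in all 12 libraries and a lowest value of 0, so they were not scaled by depth alone. The gene lists and the rule for named genes were chosen with earlier results of these data known. The rule took Ugcg and Bbs2, the 12 highest and 12 lowest fold changes among called coding genes (groups not overlapping, mean log2 CPM 1 or more), the 10 largest gains and losses in FPKM, and 2 anchors and up to 4 genes of smallest p of each list, with any called gene of a list with at most 5; not all are named, some genes are not reported here, and those named beyond the rule were chosen after their values were seen. On data simulated for this comparison (15754 genes) 17.9, 64.2 and 81.8% of genes changed 1.5-, 2- and 4-fold were recovered. There 67, 67 and 66 genes were changed, far fewer than the 5947 called in the data. These shares need not hold where many genes change. Pairs of replicates differed beyond counting noise. The alternatives were another test, scaling, filter or set of samples, the log2 FPKM table, a replicate block, a minimum fold change, and leaving out libraries or mitochondrial genes.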

Additional observations from a re-analysis of the deposited data

Results flagged for a closer look

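Dixon's test at the 95% level was applied to the CPM of 174 named genes in the untreated and in the treated group, and 18 of 348 groups of 4 libraries held a library apart from the other 3. Chance alone places about 1 in 20 groups there. Untreated 1 accounted for 9 of these. It stood highest for Clec4d at 90.4 CPM (others 20 to 27.4), Cpa3 at 31.3 CPM (others 3.82 to 7.54), Hk3 at 149.9 CPM (others 82.3 to 88.3), Hmox1 at 446 CPM (others 172 to 191), Pkm at 823 CPM (others 481 to 534), Prdx1 at 1766 CPM (others 767 to 889), Serpinb9b at 105 CPM (others 5.05 to 14.6) and Soat1 at 152 CPM (others 116 to 121). It stood lowest for Alas2 at 5.93 CPM (others 8.2 to 8.44). These include genes of myeloid and mast cells, of glucose use and of the antioxidant response, and for none of those that were higher in untreated 1 did any treated library reach the other 3 untreated ones.

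Untreated 4 stood lowest for Abcg1 at 89.3 CPM (others 109 to 112), Cybb at 242 CPM (others 306 to 309) and Retn at 60.5 CPM (others 88.7 to 94.1). Untreated 3 stood highest for Smpd1 at 73 CPM (others 59.9 to 60.7). Treated 4 stood highest for Cat at 1227 CPM (others 895 to 951) and Slc2a4 at 225 CPM (others 151 to 160.5) and lowest for Col3a1 at 649 CPM (others 1078 to 1166). Treated 3 stood highest for Jchain at 19.5 CPM (others 1.76 to 3.1). Treated 1 stood lowest for Gba2 at 24.8 CPM (others 34.5 to 35).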

How the results depend on the processing

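The counts of 2947 genes higher and 3000 lower stayed within 1.5 times under every alternative except the test against a minimum log2 fold change of 1, which left 173 higher and 495 lower; fewer genes can pass it by construction. Leaving out each library in turn gave 2039 to 2745 higher and 2528 to 2807 lower. Without treated 1 and 3 the counts were 2201 higher (13.2% of 16648 tested) and 2136 lower (12.8%). The list of lysosomal hydrolases then had 1 gene higher and that of triglyceride synthesis and lipid droplets 1 lower. Every gene called both here and under an alternative kept its direction. Ugcg did not pass under any alternative, and its log2 fold change was -0.39 to -0.18 when a library was left out. Of 158 named genes that were called, 140 were called under all alternatives run for the gene (19 for most), which do not include that minimum fold change. As to the pairing, correlations of the deviations of same-numbered untreated and treated libraries were 0.31, 0.12, 0.14 and 0.10 (0.0999 for replicate 4), and untreated 4 correlated best with treated 2 (0.20), so numbers were not taken as pairs. With the replicate block 2894 genes were higher, 3011 lower, and Ugcg was at -0.25 (adjusted p = 0.136). The named genes whose sign changed were ones that did not pass, and Foxj1; the cause was not tested. Bbs2 was at 0.0518 with the log2 FPKM values, 0.0069 with the replicate block, 0.0574 without treated 1 and 3 and -0.0948 to 0.0493 leaving out a library. By library total Acly was at -0.0958, St3gal5 at -0.11 and Atf4 at -0.10, and without treated 1 and 3 Cd36 was at 0.0092, St3gal5 at -0.0293, Foxj1 at -0.37 and Krt18 at -0.20. With the log2 FPKM values Cd36 was at 0.019 and Xbp1 at 0.0321, St3gal5 was at -0.0055 with limma-voom, and Xbp1 at 0.0042 in the compared groups alone. Leaving out a library gave -0.059 to 0.18 for Acly, -0.15 to 0.0371 for Cd36, -0.12 to 0.11 for St3gal5, -0.0919 to 0.0946 for Xbp1 and -0.0885 to 0.088 for Atf4. Genes of a few counts in the libraries of a group, such as Ucp1 in the treated ones, are limited by depth there.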

Other observations

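Gene families taken by their symbols alone were counted as well, and some of their members, such as Kif11 among the kinesins and Itgae among the integrins, are also in the lists above. Their counts stand beside 18.5% higher and 18.8% lower over all tested genes, or 13.2% and 12.8% without treated 1 and 3. The leukocyte immunoglobulin-like receptors, inhibitory and activating receptors of myeloid cells, were lower in 6 of 6 tested genes, and the Ms4a family, membrane proteins of myeloid, mast and B cells, in 9 of 12 (median -2.36). C-type lectins taken by symbol had 10 of 18 lower and 0 higher. The lectin genes Mgl2 (log2 fold change 1.27) and Cd209d (2.01), which rose, were not among those 18. Interleukin receptors had 19 of 32 lower and 4 higher, and integrins 13 of 27 lower and 2 higher. Kinesins, motors of microtubules, had 14 of 34 lower, and 9 without treated 1 and 3. Solute carriers, the largest group of membrane transporters, were called in equal measure, 58 higher and 59 lower of 260. Zinc finger proteins named Zfp were seldom called, 31 higher and 34 lower of 356 (16 lower without treated 1 and 3), and so were proteasome subunits, 1 higher and 3 lower of 39.

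Genes annotated as antisense were called higher more often than lower, 96 against 20 of 347 tested (27.7% and 5.76%). Coding genes had 18.7% higher and 20.1% lower of 14190. The strand setting of the counting is not known here, and without it reads of an antisense gene and of its partner cannot be told apart.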
